A study of Saccharomyces cerevisiae with 16 samples.

Results

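The 8 protein genes of the yeast mitochondrial genome carried by the arrays were followed through a wine fermentation: COX1 (Q0045), COX2 (Q0250), COX3 (Q0275), COB (Q0105), ATP6 (Q0085), ATP8 (Q0080), OLI1 (Q0130) and VAR1 (Q0140). They were chosen by their systematic names in the array files, 8 of 6256 gene probes. No cut on their values was used, but earlier results of these data were known. Each gene had 1 probe, spotted 2 times on every array.

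The mitochondrial genome of Saccharomyces cerevisiae encodes the membrane cores of the respiratory chain and of the ATP synthase, and the other subunits of these complexes are encoded in the nucleus and imported. COX1, COX2 and COX3 form the core of cytochrome c oxidase (complex IV), COB is the cytochrome b of complex III, ATP6, ATP8 and OLI1 build the proton channel of the ATP synthase, and VAR1 is a protein of the small mitochondrial ribosomal subunit. A dedicated polymerase transcribes these genes as long precursors. COX1, ATP8 and ATP6 are cut from one precursor and OLI1 and VAR1 from another, and in many strains COX1 and COB contain introns with reading frames of their own. On a high-sugar must this yeast represses much of its respiration, and respiratory genes are known to rise as sugar runs out.

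All samples were the industrial wine strain Lalvin EC1118 in artificial wine must at 22 °C, in 500 ml reactors divided by a dialysis membrane. In the mixed fermentations the spoilage yeast Dekkera bruxellensis (strain ZIM 701) grew on the far side of the membrane, and in the control fermentations that side stayed sterile. Cells of S. cerevisiae were collected while growing exponentially at 22 h and in stationary phase at 92 h (early) and 144 h (late). They were also collected in decline at 187 h, with 2 replicates of each kind at each time. The 8 groups therefore had n = 2 arrays each, 16 in all, hybridised in 1 colour. The comparisons were of mixed with control fermentations and of successive times.

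Levels are log2 intensities relative to the 75th percentile of the same array, so a value of 0 is a gene as bright as that percentile. Brightness also depends on the probe, and levels are compared only within a gene. Where values of 1 group or time are said to lie above those of another, the share of all probes doing so was not counted. Replicate 1 of every group was on slide 1 and replicate 2 on slide 2. Slides were laid out alike, with a row for each kind and a column for each time, so position on the slide cannot be told apart from kind or time. Between 95.4% and 98.0% of gene probes were well above background on an array. The labels do not say whether same-numbered samples of a kind came from 1 vessel, and p-values measure only the spread between these samples. In such bulk RNA, fewer mitochondria or cells and less message per cell cannot be told apart.

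Of the 8 genes, 7 were well above background on all 16 arrays. ATP6 was well above background on 2 arrays only and is described apart. No spot of these genes was saturated and none was flagged as an outlier.

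The cytochrome oxidase genes were lowest at 22 h in the mean of the 4 arrays of a time. COX3 read 1.95 and 1.24 on the control arrays at 22 h (slide 1, then slide 2, here and for each pair below), 3.71 and 3.78 at 92 h, 3.63 and 4.29 at 144 h, and 4.03 and 4.46 at 187 h. On the mixed arrays COX3 read 1.47 and 1.76, then 3.75 and 3.79, then 3.67 and 3.86, and at 187 h 4.32 and 4.28. Every COX3 value at 92 h or later lay above all 4 values at 22 h, and mixed and control values overlapped at each of the 4 times.

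COX2, the subunit that accepts electrons from cytochrome c, was lower than the 75th percentile at 22 h. Its control arrays read -1.17 and -1.93 at 22 h, -0.03 and 0.03 at 92 h, 0.02 and 0.62 at 144 h, and 0.13 and 0.71 at 187 h. Its mixed arrays read -1.51 and -1.19, then 0.08 and 0.27, then -0.15 and 0.16, and finally 1.00 and 0.86. The 2 spots of COX2 differed by 1.23 on the log2 scale on the slide 1 control array at 187 h, with intensities of 1608 and 3781, and that array is the lowest of its time. All 4 values at 92 h lay above all 4 at 22 h. At 92 h and at 187 h both mixed values lay above both control values. Neither difference passed the test (adjusted p of 0.998 and 0.251 by limma), and such separations were not counted over all probes.

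COX1, the subunit that holds the haem and copper reaction site, had the widest standard errors of the 7. Control arrays gave 1.91 and 1.48 at 22 h, 3.49 and 3.34 at 92 h, 3.36 and 4.17 at 144 h, and 4.12 and 4.42 at 187 h. Mixed arrays gave 3.42 and 1.81 at 22 h, 3.41 and 3.38 at 92 h, 2.82 and 3.87 at 144 h, and 3.86 and 5.92 at 187 h. The slide 1 mixed array at 22 h already stood at the level of 92 h, so only 1 of 4 arrays at 92 h lay above all arrays at 22 h. The slide 2 mixed array at 187 h was the highest of all 16. On every array the 2 COX1 spots agreed to within 0.18, so these 2 departures were present in both spots.

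COB, the catalytic cytochrome of complex III, moved least among the genes with a called difference. In the control fermentations COB stood at 2.27 and 2.17 at 22 h, 3.17 and 3.24 at 92 h, 2.94 and 3.79 at 144 h, and 3.28 and 3.85 at 187 h. Mixed arrays had COB at 2.96 and 2.47, 3.31 and 3.44, 2.88 and 3.66, and 3.56 and 4.33. At 22 h and at 92 h both mixed values lay above both control values, and all 4 values at 92 h lay above those at 22 h. The differences between kinds did not pass the test (adjusted p of 0.882 and 0.998 by limma). Such separations were not counted over all probes.

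Of the ATP synthase genes, OLI1 encodes the subunit of the rotating ring. Its controls read 5.61 and 5.42 at 22 h, 6.65 and 6.22 at 92 h, 6.68 and 6.90 at 144 h, and 7.44 and 6.88 at 187 h. Mixed fermentations gave OLI1 values of 5.74 and 5.71, 6.62 and 6.67, 6.75 and 6.72, and 7.71 and 7.39. The OLI1 values at 22 h spanned 5.42 to 5.74 and those at 187 h 6.88 to 7.71, with no overlap. At 22 h both mixed values lay above both control values, a separation not counted over all probes. That difference did not pass the test (adjusted p = 0.887 by limma).

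ATP8 is a small subunit beside the proton channel. Its control values were -3.36 and -3.69 at 22 h, -1.65 and -1.77 at 92 h, -2.00 and -0.96 at 144 h, and -1.47 and -0.87 at 187 h. Mixed values were -3.86 and -3.06, -1.94 and -1.57, -2.11 and -1.97, and -1.35 and -1.28. Times 22 h and 92 h did not overlap, and at 144 h the slide 2 control stood above the other 3 arrays.

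ATP6, which forms the proton path beside the ring, had no usable level. On 14 of 16 arrays neither of its spots was well above background, with processed intensities of 1.60 to 5.42. On the slide 1 control array at 92 h 1 spot read 133 and the other 2.90, and on the slide 1 mixed array at 187 h both spots were well above background, at 18.1 and 37.8. ATP6 therefore has only a bound in 6 of the 8 groups, and its fitted differences are not read as changes.

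VAR1, the ribosomal protein, read -1.04 and -1.44 in the controls at 22 h, -0.04 and 0.12 at 92 h, -0.38 and 0.27 at 144 h, and -0.08 and 0.20 at 187 h. The mixed fermentations gave VAR1 values of -1.25 and -0.75, 0.06 and 0.36, -0.18 and 0.32, and 0.16 and 0.51. All 4 values at 92 h were higher than all at 22 h, and the later times overlapped with 92 h.

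**Figure D1:**
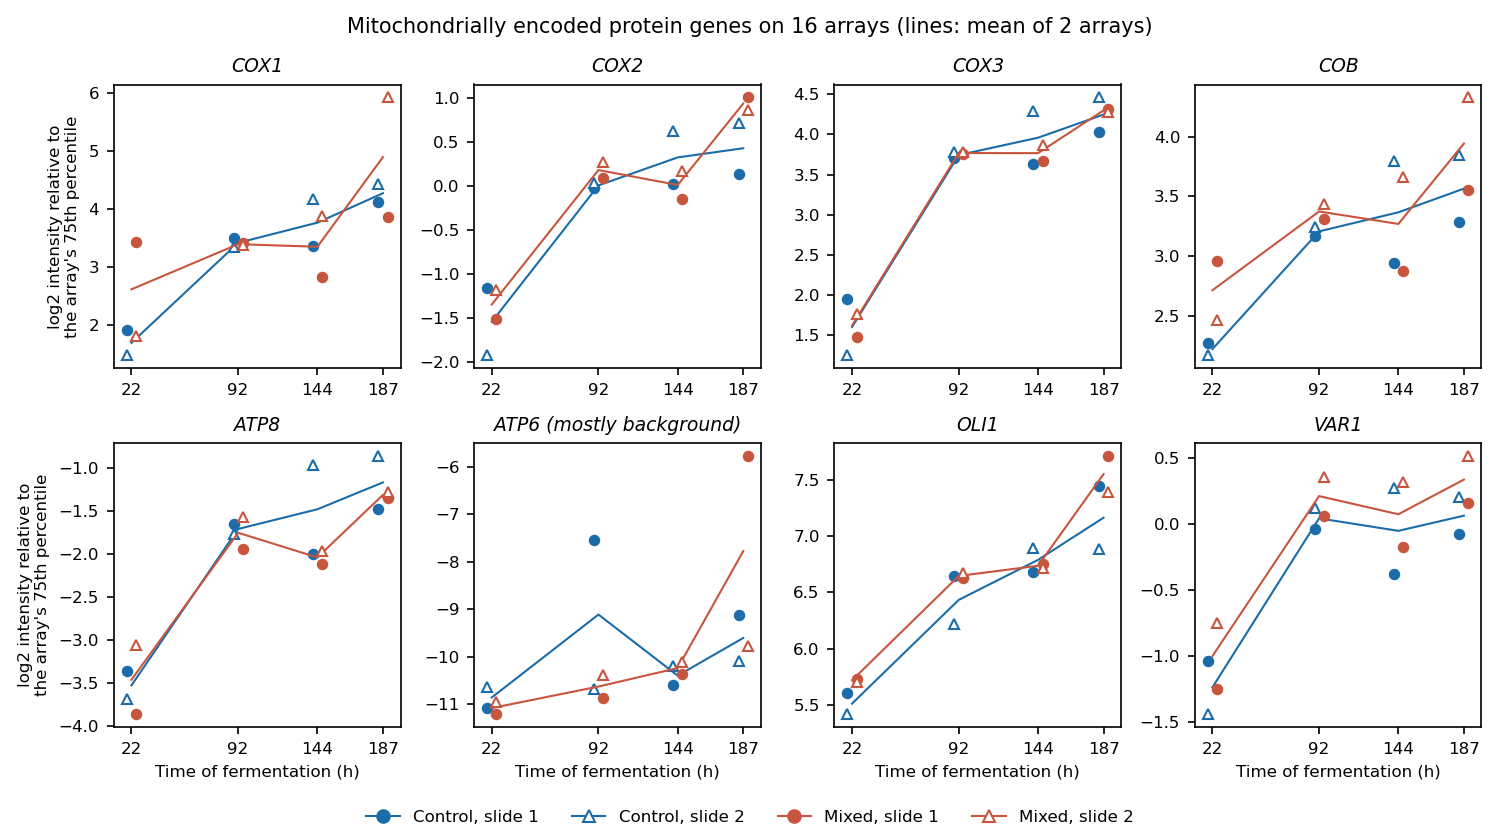
Log2 intensity relative to the 75th percentile of the array (vertical axes, 1 scale per gene) against time in hours for the 8 genes, with 1 point per array, blue for control and red for mixed fermentations, filled circles for slide 1, open triangles for slide 2, and lines through the means of 2 arrays. In COX2, COX3, ATP8, OLI1 and VAR1 all points at 22 h lie below all later ones, a separation not counted over all probes. In COX1 and COB the slide 1 mixed array at 22 h (3.42 and 2.96) reaches into the later values. ATP6 is mostly at background.

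From 22 h to 92 h all 7 genes rose relative to the 75th percentile, by 1.77-fold to 4.43-fold. COX3 rose most, by 2.15 ± 0.18 on the log2 scale (standard error, 4 arrays against 4, both kinds averaged), which is 4.43-fold. ATP8 rose by 1.76 ± 0.24 (3.39-fold), COX2 by 1.54 ± 0.20 (2.91-fold), VAR1 by 1.25 ± 0.19 (2.37-fold), OLI1 by 0.92 ± 0.14 (1.89-fold) and COB by 0.82 ± 0.25 (1.77-fold). COX1 rose by 1.25 ± 0.45 (2.38-fold). By limma, adjusted p over 6184 probes ran from 1.41e-06 for COX3 to 0.0117 for COB and 0.0288 for COX1.

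That step was a large one for the whole transcriptome. It called 65.3% of all probes, 36.2% of all as higher and 29.2% as lower, so 7 of 7 called higher is read against that share. The median difference of the 7 genes was 1.25 and that of all probes 0.07. Among the 6184 probes ordered by their difference, COX3 stood at place 231 from the top and COB at place 1130. Within slides and kinds the median of the 7 was 1.14 and 1.86 in the controls and 1.31 and 1.46 in the mixed fermentations, for slides 1 and 2. On slide 1 of the mixed fermentations COX1 differed by only -0.01 between these times.

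The COX1 call was near the threshold. Without the slide 1 mixed array at 22 h its difference was 1.66 (adjusted p = 0.00809 by limma), and without the slide 2 mixed array at 22 h it was 0.85 (adjusted p = 0.120 by limma). The call was also lost without the slide 2 control at 22 h or without any 1 of the 4 arrays at 92 h, at differences of 1.14 to 1.29, close to the 1.25 of all arrays, and adjusted p of 0.0549 to 0.0786. The other 6 genes kept their calls whichever array was left out. OLI1 differed by 0.26 with quantile normalization and by 0.21 with background modelling and quantile normalization (adjusted p = 0.0518 by limma).

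The size of this step depends on what the arrays are scaled to. RNA controls were added to a fixed 200 ng of total RNA before labelling, and 7 spike-in probes measure them. Relative to these, the 75th percentile itself stood at 1.56 on average at 22 h, 0.39 at 92 h, 0.10 at 144 h and -0.17 at 187 h. Single arrays ran from 1.12 to 1.88 at 22 h and from 0.16 to 0.68 at 92 h. On the spike-in scale the median probe differed by -1.09 between 22 h and 92 h.

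On that scale COX3 rose by 0.99 ± 0.31 (adjusted p = 0.00273 by limma) and was the only gene of the 8 called, where 76.5% of all probes were called and 5.48% were called higher. ATP8 differed by 0.60, COX2 by 0.38, COX1 by 0.09 and VAR1 by 0.08, none past the test. OLI1 and COB turned to -0.24 and -0.34, also not past the test. The median of the 7 lay 1.18 above the median of all probes. That gap is the same on either scale by construction, as scaling shifts all probes of an array alike. A called rise in all 7 genes was seen relative to the arrays' own signal but not relative to the added controls. On the spike-in scale the standard error was 0.31 for each of the 8 genes. Those tests thus rest on a shared spread and not on that of each gene. Yeast mitochondrial messages lack the poly(A) tails of nuclear ones, and labelling kits of this kind commonly prime from such tails. The part of priming in these values was not tested.

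**Figure D2:**
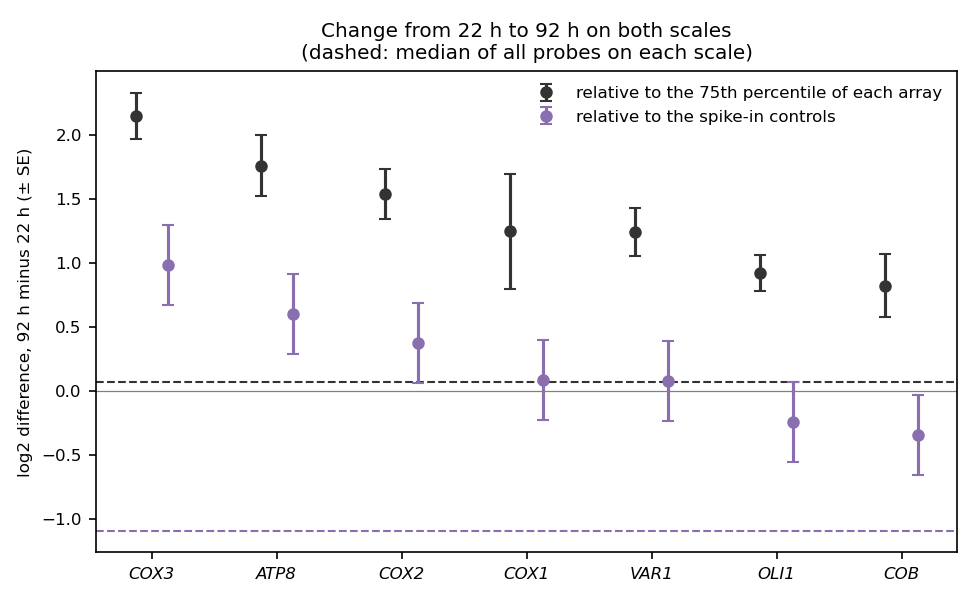
Log2 difference between 92 h and 22 h with its standard error (vertical axis) for the 7 genes, over both kinds of fermentation, in black relative to each array's 75th percentile and in purple relative to the spike-in controls; dashed lines mark the median of all probes on each scale. Every gene lies above the dashed line of its scale, by a gap that is the same on both scales by construction. COB and OLI1 lie below 0 on the spike-in scale.

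From 92 h to 144 h the 7 genes showed no called difference, in a step that called 15.4% of all probes. Their differences ran from -0.12 for VAR1 to 0.22 for OLI1 (adjusted p of 0.303 to 0.957 by limma), with a median of 0.07 against -0.06 for all probes. The 95% intervals still allow sizeable change, from -0.84 to 1.14 for COX1 and from -0.29 to 0.50 for COX3. None of the 7 had an unadjusted p under 0.05, as 2014 of all probes did. Scaled to the spike-in probes, the 7 differences were all negative, from -0.41 to -0.08, where the median of all probes was -0.36. The slides differed here. In the controls 2 of 7 genes were higher at 144 h on slide 1 and 7 of 7 on slide 2, with medians of -0.14 and 0.59.

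From 144 h to 187 h OLI1 alone was called, higher by 0.59 ± 0.14 (1.51-fold, adjusted p = 0.0273 by limma), where 11.3% of all probes were called and 5.81% called higher. All 7 differences were positive, from 0.19 for VAR1 to 1.03 for COX1, with a median of 0.51 against -0.06 for all probes, and on the spike-in scale 6 were, with VAR1 at -0.07 and a median of all probes of -0.32. COX2 (0.51), COX3 (0.41) and COX1 had unadjusted p under 0.05 but adjusted p of 0.108 to 0.148 by limma. Without the slide 2 mixed array at 187 h the COX1 difference was 0.51 (adjusted p = 0.422 by limma), and without the slide 1 one it was 1.54 (adjusted p = 0.0345). Within slides the median of the 7 was 0.41 and 0.09 in the controls and 0.77 and 0.67 in the mixed fermentations. OLI1 itself differed by 0.76 and -0.01 in the controls and by 0.95 and 0.67 in the mixed fermentations.

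The OLI1 difference at this step was smaller, and not called, with quantile normalization (0.18), with background modelling before it (0.16) and on the spike-in scale (0.33). When only the arrays of these times were fitted it stayed at 0.59 but missed the threshold (adjusted p = 0.0861 by limma). It also missed it without any 1 of 6 of the 8 arrays of these times, at 0.45 to 0.65 (adjusted p of 0.0547 to 0.0816 by limma). Those were the 4 arrays at 144 h and the 2 of slide 1 at 187 h.

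The duplicates of a group lay farther apart for these genes than over all probes in 7 of 8 groups, by the median absolute difference, and not in the mixed fermentations at 92 h (0.13 against 0.15). Between the slide 2 and slide 1 controls at 144 h all 7 genes were higher on slide 2, by a median of 0.67, where the median absolute difference of all probes was 0.17 and 49.4% of all probes were higher on slide 2. In the controls at 22 h the reverse was seen, with 0 of 7 higher on slide 2 and a median of -0.41. At 187 h 6 of 7 were higher on slide 2 in the controls (median 0.43). The 7 genes thus shifted together between duplicates in these groups. In the mixed fermentations COX1 had the largest gap between duplicates at 22, 144 and 187 h, at -1.62, 1.05 and 2.06 (slide 2 minus slide 1).

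No difference between mixed and control fermentations passed the test in these genes. Averaged over the 4 times, 0 of 7 were called, where 8.59% of all probes were. Differences of mixed minus control ran from -0.17 ± 0.17 for ATP8 to 0.28 ± 0.32 for COX1, with adjusted p of 0.239 to 0.917 by limma. OLI1 was at 0.19 with a 95% interval of -0.03 to 0.41, VAR1 at 0.20 (-0.09 to 0.49) and COX3 at -0.02 (-0.30 to 0.26). The widest intervals were those of COX1 (-0.42 to 0.98) and COB (-0.15 to 0.62).

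Over the 8 pairs of a slide and a time, VAR1 was higher in mixed in 7, COB and OLI1 in 6, COX2 and COX3 in 5, COX1 in 4 and ATP8 in 3. The median of the 7 genes was 0.19, against -0.03 for all probes. On the spike-in scale each of these differences was 0.12 higher, and none of the 8 was called there, where 2.28% of all probes were.

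At single times the result was alike. At 22 h 0 of 7 were called (0% of all probes), and COX1 stood at 0.92 with a 95% interval of -0.48 to 2.32, through its slide 1 array. All 7 differences at 22 h were positive, but by slide 3 of 7 were higher in mixed on slide 1 and 7 of 7 on slide 2. Scaling to the spike-in probes raised each difference at 22 h by 0.53, like that of every other probe. At 92 h 0 of 7 were called (0.0162% of all probes), within -0.04 to 0.21. At 144 h 0 of 7 were called (0% of all probes), and 6 of the 7 values were negative, down to -0.56 for ATP8.

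At 187 h, when 7.28% of all probes were called, 0 of 7 were. The differences then were 0.62 for COX1, 0.51 for COX2, 0.39 for OLI1, 0.38 for COB, 0.27 for VAR1, 0.05 for COX3 and -0.14 for ATP8, with adjusted p of 0.222 upward by limma. The COX1 value came from slide 2, with -0.26 on slide 1, and leaving out 1 array moved it from -0.41 to 1.65. COX2 had a 95% interval of -0.10 to 1.12, and the control array whose COX2 spots disagreed is one of the 4 behind it. The slide medians at 187 h were 0.27 and 0.31.

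Whether the difference between kinds changed after 22 h was tested as an interaction. None of the 7 was called (0% of all probes), with values of -0.86 for COX1 to -0.02 for OLI1 and adjusted p from 0.699 by limma. Nor was any of them called in the 6 interactions between pairs of times, with a lowest adjusted p of 0.723 by limma. In each of these 6 interactions 0% of all probes were called, so the absence of calls is not particular to these genes. At an unadjusted p under 0.05 none of the 7 passed in the mean over times, at 22, 92, 144 or 187 h or in the interaction after 22 h, where 1728, 390, 348, 568, 1792 and 674 of all probes did.

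**Figure D3:**
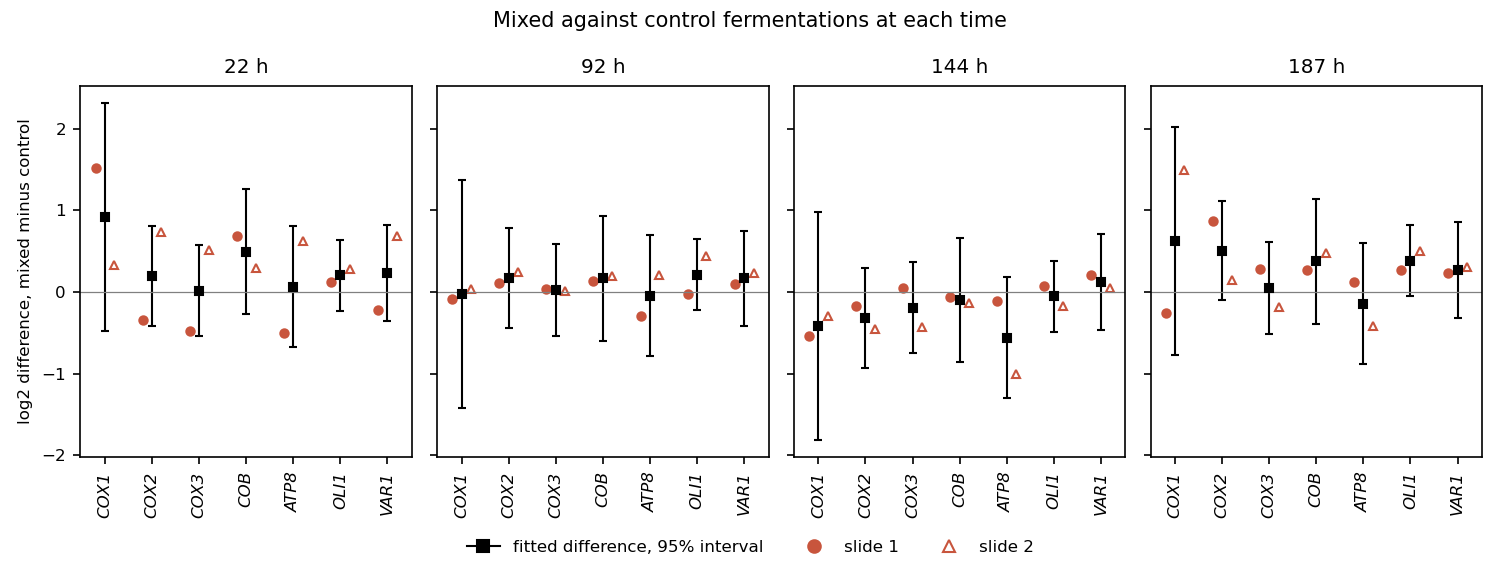
Log2 difference of mixed minus control (vertical axis) for the 7 genes at each of the 4 times, with the fitted difference and its 95% interval as black squares and bars and the difference within slide 1 and slide 2 as red circles and open triangles. All 28 intervals include 0, and COX1 has the widest.

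The arrays carried 15 further mitochondrial reading frames, most of them inside introns of COX1 or COB. Of them 9 passed the filter, not all on dim probes. Of these 9, 4 were called higher at 92 h than at 22 h relative to the 75th percentile, a share near the 36.2% of all probes called higher. AI5_BETA (Q0075), a reading frame of a COX1 intron, read 0.17 and -0.13 in the controls at 22 h and 1.99 and 1.24 at 92 h. Mixed arrays went from 0.47 and 0.52 to 2.30 and 2.11, a rise of 1.66 ± 0.18 over both kinds. Its 22 h and 92 h values did not overlap.

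AI3 (0.88 ± 0.19), another COX1 intron frame that encodes a homing endonuclease, and Q0297 (0.95 ± 0.13) also rose relative to the 75th percentile. So did BI2 (0.50 ± 0.16), the maturase frame of a COB intron. Adjusted p of these frames ran from 4.63e-05 to 0.0162 by limma. On the spike-in scale each difference of this step was lower by 1.16. That exceeds the rises of AI3, Q0297 and BI2, which turn negative there, but not the 1.66 of AI5_BETA. AI4 (0.39), Q0010 (0.32), Q0017 (0.29), Q0182 (-0.03) and SCEI (-0.09), the endonuclease frame of the large ribosomal RNA gene, were not called. After 92 h Q0017 fell by 0.50 to 144 h and Q0297 rose by 0.63 to 187 h (adjusted p = 0.0155 by limma). AI1, AI2, AI5_ALPHA, BI3, BI4 and Q0255 were well above background on at most 1 array. No source used here states which of these introns EC1118 carries, and signal from a frame inside a precursor cannot be told apart from that of the precursor.

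**Figure D4:**
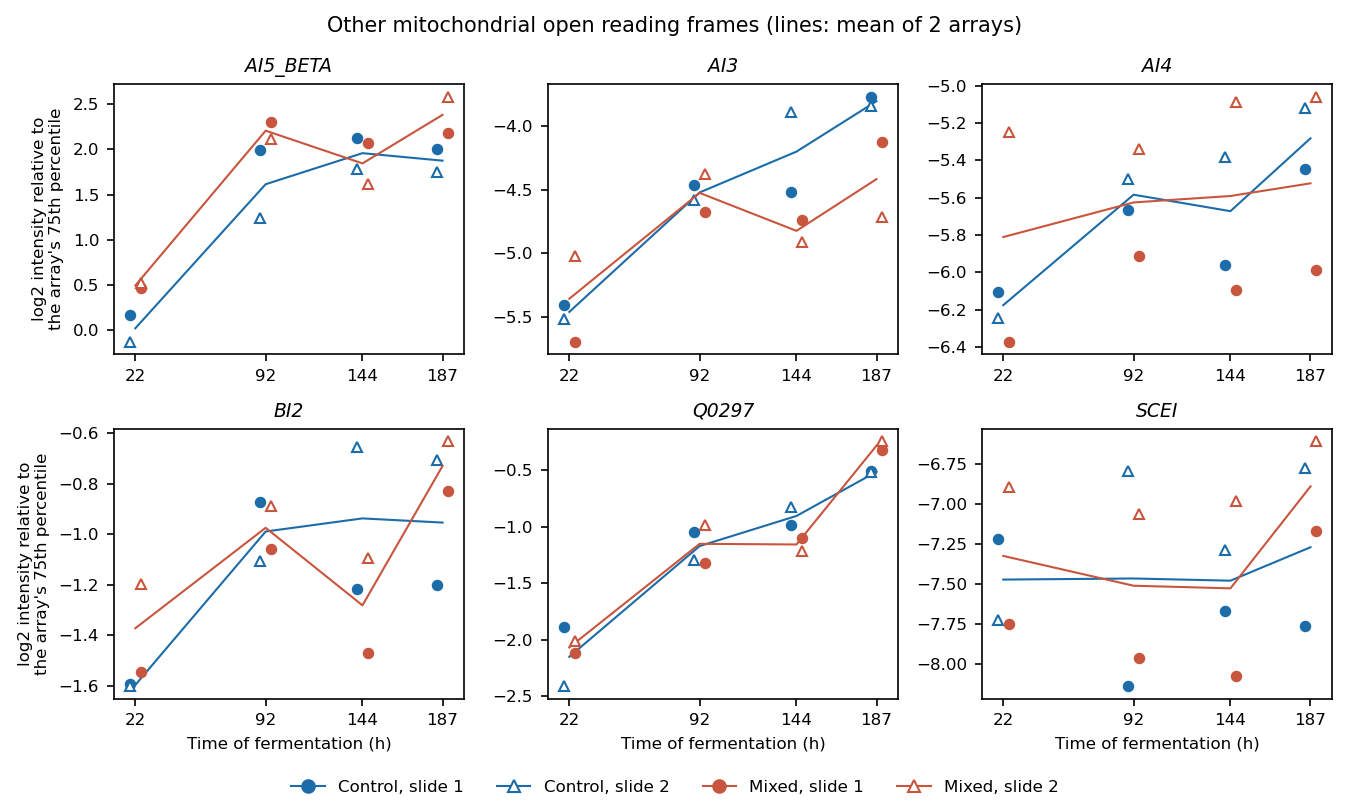
Log2 intensity relative to the 75th percentile of the array (vertical axes, 1 scale per panel) against time in hours for 6 other mitochondrial reading frames, with colours, symbols and lines for kind, slide and mean of 2 arrays. AI5_BETA, AI3, BI2 and Q0297 are higher at 92 h than at 22 h in the mean of both kinds, and in AI4 and SCEI the slide 2 arrays of the mixed fermentations lie above those of slide 1.

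The nuclear partners of these genes were called in both directions from 22 h to 92 h, as were all probes, with 36.2% called higher and 29.2% lower. Of 9 nuclear subunits of complex III 5 rose and 2 fell (median 0.35), with the small subunits QCR8 (1.98 ± 0.11) and QCR9 (0.73) higher and the iron-sulfur protein RIP1 (-0.53) and the core protein COR1 (-0.21) lower. Of 9 of complex IV 5 rose and 2 fell (median 0.46), with COX13 (1.40) and COX7 (1.13) higher and COX6 (-0.81) and COX8 (-0.46) lower. Of 14 ATP synthase subunits 6 rose and 1 fell (median 0.10), with ATP15 (0.75) and ATP18 (0.89) higher and ATP5 (-0.37) lower. On the spike-in scale each difference of this step was lower by 1.16, and 1 of 9, 1 of 9 and 0 of 14 were then positive.

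The genes that make and handle the mitochondrial messages were also called in both directions, again beside 36.2% higher and 29.2% lower over all probes. Of 13 genes of mitochondrial transcription, RNA turnover and DNA maintenance 2 rose and 5 fell (median -0.09). The DNA-packaging protein ABF2 (-0.93 ± 0.11) and the DNA repair protein MGM101 (-0.59) were among those that fell, and the exoribonuclease DSS1 (0.46) and the RNA polymerase RPO41 (0.45) rose. Of 19 message-specific factors 6 rose and 3 fell (median 0.03). PET122, a translational activator of COX3, rose by 0.90 ± 0.11, and NCA3, which acts on the expression of ATP6 and ATP8, by 2.49 ± 0.35. The COB activator CBS1 (-0.45) and NCA2 (-0.53) fell.

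Of 7 splicing factors 3 rose and 2 fell (median 0.22). NAM2, the leucyl-tRNA synthetase that also acts in splicing, rose by 0.51 and MNE1 by 0.58, and the helicase MSS116 (-0.67) and MRS1 (-0.54) fell. Of 24 insertion and assembly factors 8 rose and 2 fell (median 0.15), with the COX2 chaperone COX20 (0.93) and COX23 (0.96) higher and the F1 assembly factor ATP12 (-0.48) and SOM1 (-0.29) lower. On the spike-in scale NCA3 was the only gene of these 4 lists with a positive difference.

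After 92 h nuclear subunits of complexes III and IV were called higher in steps in which the mitochondrial genes mostly did not pass the test. The 7 mitochondrial genes had medians of 0.07 and 0.51 in these steps. Their standard errors were 0.14 to 0.45, wider than the 0.08 to 0.21 of the complex III and IV subunits. A difference between these sets was not tested. From 92 h to 144 h 4 of 9 were called higher in complex III (median 0.63, QCR9 by 0.73) and 7 of 9 in complex IV (median 0.68, COX8 by 0.75). None was called lower, and 6.34% of all probes were called higher. From 144 h to 187 h 8 of 9 were called higher in complex III (median 0.71, QCR9 by 0.71) and 6 of 9 in complex IV (median 0.62, COX4 by 1.10 ± 0.11). Over all probes 5.81% were called higher in that step. The 14 nuclear ATP synthase genes had 0 called in either step, with medians of 0.16 and 0.16, and the same was true of ATP8 in both steps, while OLI1 passed in the second. On the spike-in scale the medians of complexes III and IV stayed positive in both steps, at 0.33 to 0.45, and those of the ATP synthase list were -0.14 and -0.10.

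**Figure D5:**
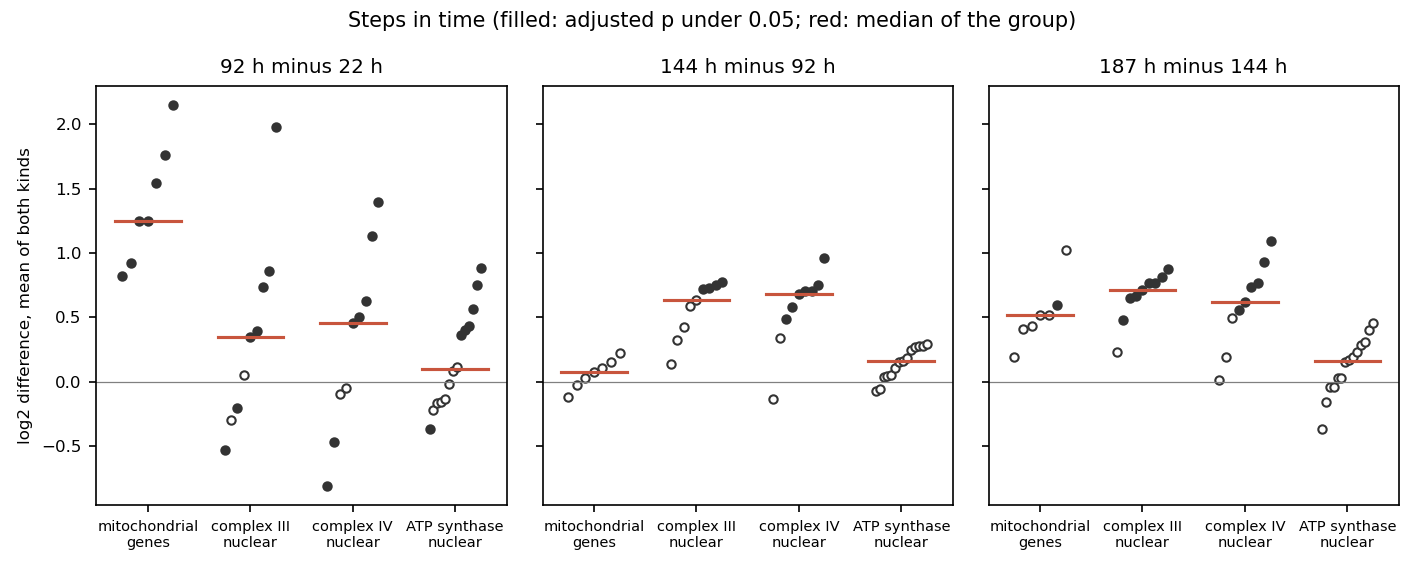
Log2 difference in each step of time, averaged over both kinds (vertical axis), for the 7 mitochondrial genes and for the nuclear subunits of complex III, complex IV and the ATP synthase, 1 point per gene, filled where adjusted p was under 0.05, with a red line at the median of each group. The mitochondrial genes have a median of 1.25 in the first step and 0.07 in the second, and the complex III and IV subunits medians of 0.63 and 0.68 in the second.

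In the mean over times few genes of the partner lists outside the ATP synthase passed the test of mixed against control. At 187 h more genes outside the ATP synthase did. Of the 14 nuclear genes of that complex 5 were lower in mixed in the mean over times (median -0.29), among them subunit b, ATP4 (-0.43 ± 0.07), and the delta subunit ATP16 (-0.38), and MGM101 was lower (-0.20), where 5.37% of all probes were called lower. The ATP synthase list's median was -0.17 on the spike-in scale. The complex III, complex IV, message-specific, splicing and assembly lists had 0 called in that mean, with medians of -0.16 to -0.01. The message-specific, splicing and assembly medians at 187 h were -0.28, -0.31 and -0.28. At that time ATP4 (-0.81) and ATP16 (-0.78) were 2 of 4 ATP synthase genes that were lower, the COX1 factor PET309 (-0.55) and the COX3 factor PET494 (-0.62) were the 2 message-specific factors called, and 4 assembly factors, among them COX11 (-0.53) and COX18 (-0.44), and MGM101 (-0.61) were lower, where 4.46% of all probes were called lower. OLI1 and ATP8, the mitochondrial members of the ATP synthase that were measured, had 187 h differences of 0.39 and -0.14, not past the test. A difference between mitochondrial and nuclear members was not tested.

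The profile over the 8 groups was summarised by centring each gene on its own mean. The mean of the 7 genes stood at -1.35 and -1.05 at 22 h (control, then mixed), 0.13 and 0.23 at 92 h, 0.35 and 0.14 at 144 h, and 0.62 and 0.92 at 187 h. COX2 lay closest to it, with a root mean square difference of 0.10 on the log2 scale over 8 group means, and COX3 farthest, at 0.34, through its lower start. Each of the 7 genes was itself part of that mean, which favours them over other probes. Among other mitochondrial frames Q0297 (0.18) and AI5_BETA (0.21) lay closest.

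Outside the mitochondrial genome, the 5 probes nearest to the mean of the 7 genes were OLE1, MPH1, YGL088W, PIB1 and YDR193W, with root mean square differences of 0.13, 0.13, 0.14, 0.14 and 0.15. Of the 7 genes only COX2 lay nearer than these 5 probes, so the profile was not particular to the mitochondrial genes. The same 5 were nearest, in another order and at 0.14 to 0.17, when ATP6 was averaged in as the naming rule had it. OLE1 is the fatty acid desaturase of yeast, PIB1 a ubiquitin ligase of endosomal membranes and MPH1 a DNA helicase. The centred means of OLE1 were -1.30 and -0.99 at 22 h and 0.65 and 1.11 at 187 h, control then mixed. Likeness here is over 8 means that share the same arrays, and no test was made of it.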

How the data were processed

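Each deposited array file gave a processed intensity for every spot, corrected for background by Feature Extraction 10.7.3.1, per the file headers. Intensities were taken as log2, 50 outlier spots in all were dropped, the 2 spots of a probe averaged, and arrays scaled to their 75th percentile. Probes well above background on at least 2 arrays were kept (6184, with 72 removed). The authors' deposited log2 table, shifted by a different constant at each time, was an alternative within times only. Using limma 3.58.1 in R 4.3.3, 8 group means were fitted (8 residual and 3.26 prior degrees of freedom), with Benjamini-Hochberg adjustment per comparison at 0.05. The fit was tested on simulated data. Tables were made with Python 3.11.15 and plots with matplotlib 3.10.9.

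A RefSeq table named 5756 of 6256 identifiers. Its build is not that of the array design, so no coordinates are given, and no sequence was used here. Named beside the members were up to 2 genes per direction and list (by smallest p), the 5 probes of most similar profile and other mitochondrial frames kept. The members and the 7 lists (95 genes) were chosen with earlier results of these data known. Alternatives were median, quantile and spike-in scaling, normexp (offset 50) with quantile normalization, the deposited table, stricter and no filter, blocks for replicate and for vessel, an intensity trend in the variances, the compared times alone, and each array left out. The number of arrays limits the precision.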

Additional observations from a re-analysis of the deposited data

How the results depend on the processing

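Of the 7 calls from 22 h to 92 h, all held with the median of each array, quantile normalization, other filters, another variance model, the vessel block and the compared times alone. Spike-in scaling left 1 call and turned COB to -0.34 and OLI1 to -0.24, through the lower spike-in-relative 75th percentile at later times. Normexp with quantile normalization left 6. Leaving out 1 array gave 6 to 7. From 92 h to 144 h quantile normalization called 1 gene, OLI1 (0.25). From 144 h to 187 h the count was 0 with quantile normalization, with normexp and quantile normalization together, and with the compared times alone, and leaving out 1 array gave 0 to 2, with COX1 (1.54) called without the slide 1 mixed array at 187 h and ATP6 (2.63) without the slide 2 one. Spike-in scaling there called ATP6 (1.37) in place of OLI1. At 187 h it called 1 gene for mixed against control, ATP6 (1.82), which was mostly at background. Other comparisons of mixed with control had 0 calls under every alternative run. Of 1681 uncalled differences that stayed uncalled, 102 changed sign. The causes were not tested.

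Same-numbered arrays shared a slide. Over 28 pairs of groups their deviations correlated from -0.47 to 0.49, with 13 over 0.1, so the numbers were not taken as pairs. With the replicate block the counts were 7 from 22 h to 92 h, 0 from 92 h to 144 h, 1 from 144 h to 187 h and 0 in each comparison of mixed with control, so it changed no count.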
